A study of Mus musculus with 10 samples.

Results

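The genes described here are 34 liver genes that make fatty acids, lengthen and desaturate them, build triglyceride from them or coat the droplets in which it is stored. They were chosen by name, and every probe set of the array whose annotated symbol matched one of the names was taken, which gave 70 of 45101 probe sets. All 34 genes had at least 1 probe set with no other symbol. RNA came from whole liver of 10 male B6C3F1/Crl mice, a cross of C57BL/6 males with C3H/He females that is widely used in carcinogenicity studies. The mice were 29 to 32 days old when received and had 5 days to settle. For the next 28 days the drinking water of 5 mice held phenobarbital at 0.05% (w/v), and 5 mice served as controls without it. Phenobarbital is a barbiturate that induces drug-metabolising enzymes in liver and is a non-genotoxic promoter of rodent liver tumours. Each liver was measured on its own Affymetrix array, and all values below are log2 expression values of a probe set or differences between them. Levels of different probe sets are not comparable with each other, so each gene is compared only with itself across animals.

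In liver, citrate leaves the mitochondrion and is split to acetyl-CoA, which acetyl-CoA carboxylase turns into malonyl-CoA and fatty acid synthase into palmitate. Elongases and desaturases convert palmitate into longer and unsaturated acids, and acyltransferases join these to glycerol to give triglyceride, which is secreted in lipoproteins or kept in lipid droplets. The transcription factors SREBP1, driven by insulin, and ChREBP, driven by glucose, switch on most of the enzymes together. They act with NF-Y, a factor that binds the sequence CCAAT.

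The 4 genes whose levels rose most in this set are Thrsp, Pnpla3, Elovl6 and Fasn, and their promoters are shown for that reason. Each runs 5′ to 3′ from 250 bases before to 50 bases after the RefSeq start in GRCm38.p6, and capitals mark matches to any of the motifs named in the next paragraph.
Thrsp, chr7:97417501-97417800, minus strand: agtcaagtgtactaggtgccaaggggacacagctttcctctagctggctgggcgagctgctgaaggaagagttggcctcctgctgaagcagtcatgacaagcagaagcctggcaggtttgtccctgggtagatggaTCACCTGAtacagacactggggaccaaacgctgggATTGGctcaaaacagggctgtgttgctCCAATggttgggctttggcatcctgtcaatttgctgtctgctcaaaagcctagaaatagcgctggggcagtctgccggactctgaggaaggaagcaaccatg
Pnpla3, chr15:84167566-84167865, plus strand: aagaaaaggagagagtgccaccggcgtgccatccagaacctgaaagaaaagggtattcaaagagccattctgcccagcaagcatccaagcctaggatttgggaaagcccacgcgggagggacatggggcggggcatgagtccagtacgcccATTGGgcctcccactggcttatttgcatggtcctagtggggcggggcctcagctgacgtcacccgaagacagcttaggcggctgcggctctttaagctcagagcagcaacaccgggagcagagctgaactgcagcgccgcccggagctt
Elovl6, chr3:129532136-129532435, plus strand: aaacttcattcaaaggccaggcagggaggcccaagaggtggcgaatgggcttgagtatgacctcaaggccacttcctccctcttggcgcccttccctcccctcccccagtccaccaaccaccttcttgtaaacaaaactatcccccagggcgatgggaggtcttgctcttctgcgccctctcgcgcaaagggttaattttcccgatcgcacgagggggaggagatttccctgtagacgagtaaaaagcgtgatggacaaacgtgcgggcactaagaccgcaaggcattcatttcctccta
Fasn, chr11:120824498-120824797, minus strand: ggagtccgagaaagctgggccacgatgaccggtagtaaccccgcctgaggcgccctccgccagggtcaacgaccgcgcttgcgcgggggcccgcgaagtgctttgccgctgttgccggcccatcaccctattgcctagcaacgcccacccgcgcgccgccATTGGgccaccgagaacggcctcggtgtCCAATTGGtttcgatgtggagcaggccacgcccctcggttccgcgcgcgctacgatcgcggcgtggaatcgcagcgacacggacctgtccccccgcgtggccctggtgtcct

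The motifs searched, on both strands, were CCAAT, the sterol regulatory element TCACNCCAC, the E-box CACGTG and the E-box form TCACNTGA. The last of these can overlap CACGTG, and all were matched letter by letter. CCAAT occurred in the Thrsp, Pnpla3 and Fasn promoters and not in that of Elovl6. Thrsp also held 1 match to TCACNTGA. RefSeq promoters were at hand for 27 of the 34 genes, as 37 windows. CCAAT was found in 8 of the 9 genes called higher below, or 8 of their 11 windows, in 9 of 17 genes not called, or 10 of their 24 windows, and in 37.408% of all 32851 windows. The other motifs were rare: among windows of the genes called higher, CACGTG occurred in 2 (Mlxipl and Slc25a1), TCACNCCAC in 1 (Mlxipl) and TCACNTGA in 1 (Thrsp), against 7.15%, 1.242% and 4.179% of all windows. These matches are letters in a window and do not show that a factor bound there.

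Upper quartiles of the arrays were 7.39 to 7.46 in controls and 7.30 to 7.36 in treated animals, with no overlap (exact permutation test, two-sided, p = 0.00794, the smallest that 5 against 5 allows, 0.0278 adjusted over 7 array measures), and the 5 arrays in each group limit the precision. The arrays fell into 2 sets by 24 probe sets for poly-A spike-in transcripts, which enter a sample with the labelling reaction. Control replicates 1, 2, 3 and 5 averaged 7.77 to 8.64 over these probe sets. Control replicate 4 and all phenobarbital arrays averaged 5.76 to 6.58. The 3′ minus 5′ difference of Actb, a sign of RNA integrity, was also lower on average in treated animals. It was 1.25 ± 0.06 against 1.54 ± 0.19 (SD, n = 5, exact permutation test, two-sided, p = 0.0238, 0.0333 adjusted). Control replicate 4 read 1.28, within the treated range of 1.19 to 1.33, and the other controls read 1.46 to 1.78. Actb thus divided the arrays as the poly-A spike-ins did. Hybridization spike-in probe sets gave the same division. They averaged 10.65 in control replicate 4, 10.54 to 10.74 in treated animals and 10.95 to 11.30 in the other controls. Gapdh, measured in the same way as Actb, separated the groups (p = 0.00794 in the same exact test, 0.0278 adjusted). The part of these in the results was not tested. The lower set of 6 arrays is the only one that holds both groups. A value with this set as a block is therefore given for the called members and for many other genes. It is called the within-set value and equals the mean of the 5 treated animals minus control replicate 4. Of 9 hepatocyte markers, Alb averaged 14.98 in controls and 14.96 in treated livers, and Ass1, an enzyme of the urea cycle, was called lower (8.36 to 6.86, -1.50, limma adjusted p = 0.0199, within-set value 0.04). The mean of the 9 was 13.43 to 13.72 in controls and 13.31 to 13.42 in treated livers, with no overlap. Ass1, which ran from 6.82 to 9.92 in controls, carried most of this shift. The rest of the 9 changed by -0.066 to 0.092 and were not called. The mean of 7 kidney markers was 5.50 in control replicate 2 and 4.78 to 5.06 in the other 9 animals. Kap, a kidney androgen-regulated protein, read 7.76 in control replicate 2 and 5.41 to 6.13 in the other 9. Umod and Slc12a1 were also highest there (4.36 and 4.22), and the rest of the 7 were not. Fat cell markers had means from 3.77 for Ucp1 to 6.88 for Slc2a4 in controls, with the defining marker Adipoq at 3.84. The 10 stellate cell markers averaged 8.45 to 8.61 in controls and 7.96 to 8.37 in treated livers, and 6 of them were called lower and none higher by limma (0 higher at an unadjusted p under 0.05), where 11.3% of all genes were called lower. In whole liver, fewer cells of a type and less RNA per cell cannot be told apart.

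Phenobarbital-treated livers had more RNA of part of the fatty acid synthesis pathway and less of 1 lipid droplet protein. Of the 34 genes, 10 were called (limma, Benjamini-Hochberg adjusted p under 0.05 over all 18193 genes), against 20.3% of all genes. Of the 34, 30 lay above the median gene level. With genes above that level tested alone, 2636 were called, against 3692 of all 18193, and 9 of the 30 were higher and 1 lower. Bright genes were thus called more often, and the shares of all genes here and below are not matched for level. The 9 called higher are 26.5% of the set, where 9.02% of all genes were called higher. They were Thrsp, Pnpla3, Elovl6, Fasn, Acacb, Elovl1, Slc25a1, Mlxipl and Acly. Plin5 alone was called lower, 2.94% of the set against 11.3% of all genes. The median log2 fold change of the 34 genes was 0.13, and that of all genes was 0.01. In 6 genes of the set every treated animal lay above every control, and in 1 every treated animal lay below (5.73% and 7.21% of all genes, or 12.9% in either direction). With the spike-in set as a block none of the 34 was called by limma, where 0.786% of all genes were. At an unadjusted p under 0.05 the block left 6 higher and 2 lower, where 5.41% of all genes were higher and 13.3% moved in either direction. The median within-set value was 0.03, and 25 of 34 genes had the sign they had without the block.

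**Figure D1:**
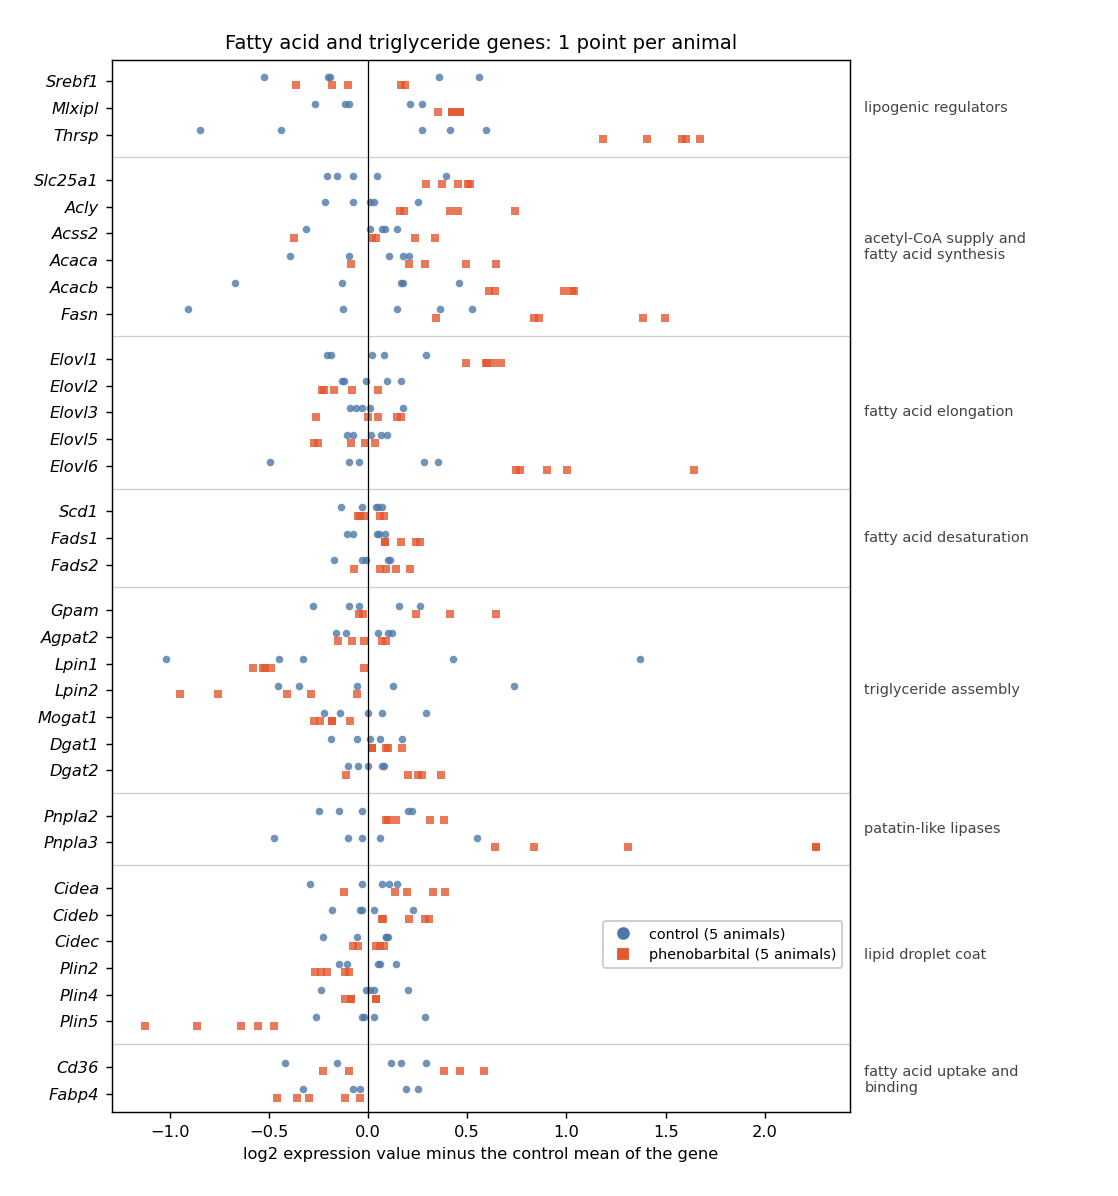
Log2 expression value of each animal minus the control mean of that gene, for the 34 genes grouped by role (circles, 5 controls; squares, 5 phenobarbital-treated). Treated animals lie to the right of all controls in Mlxipl, Thrsp, Acacb, Elovl1, Elovl6 and Pnpla3 and to the left of all controls in Plin5.

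**Figure D2:**
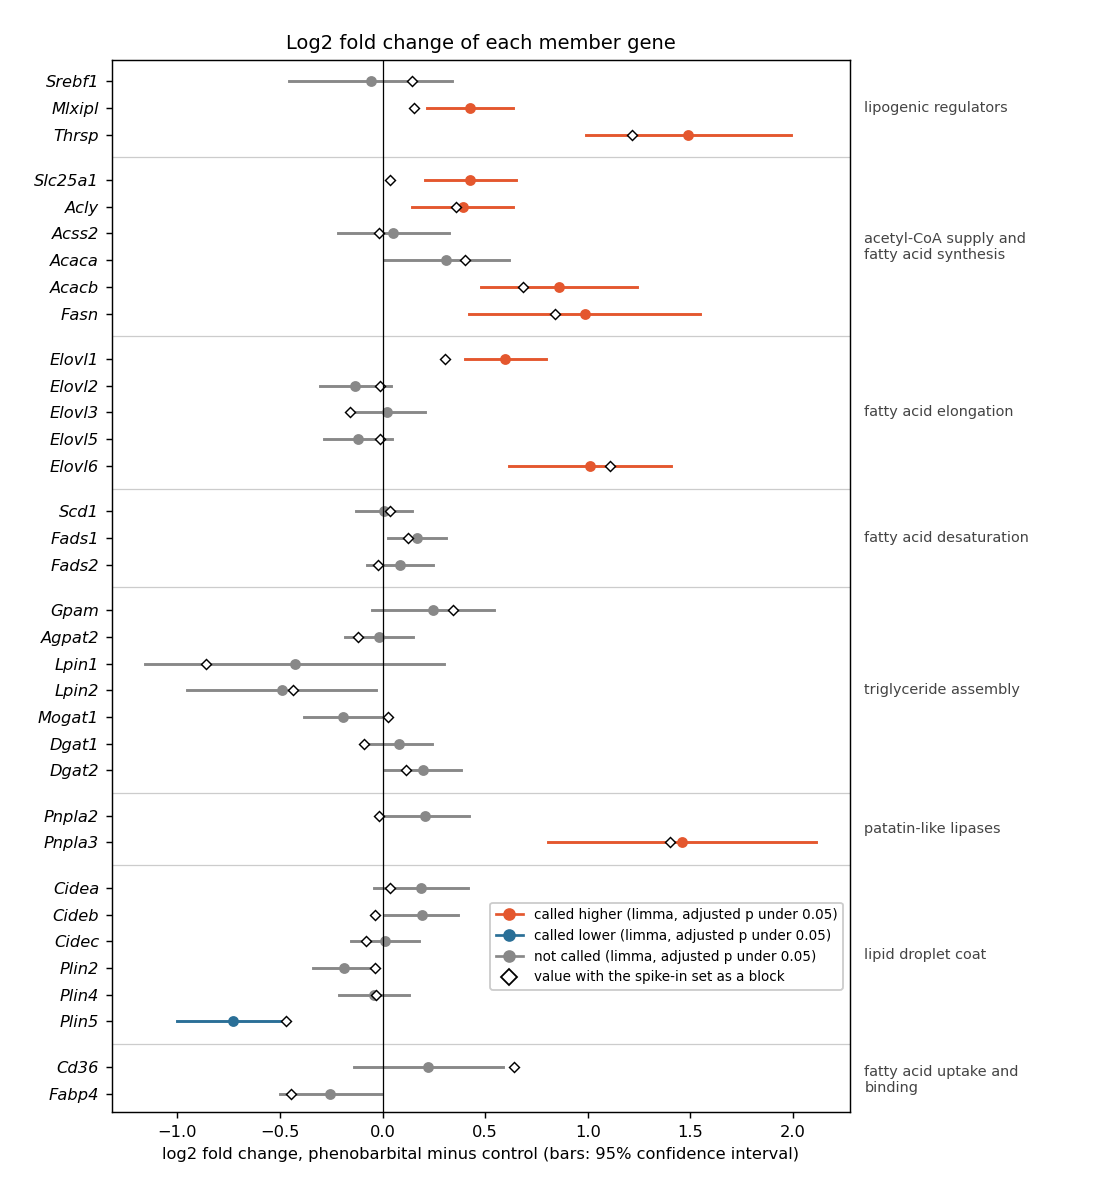
Log2 fold change (phenobarbital minus control) of each gene with its 95% confidence interval from limma, coloured by call. Open diamonds give the value with the spike-in set as a block, which lies close to the main value for Pnpla3 and Elovl6 and near 0 for Slc25a1.

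Among the 3 regulators, Thrsp and Mlxipl rose and Srebf1 was not called. Thrsp encodes Spot 14, a nuclear protein that raises the rate of lipogenesis and responds to thyroid hormone and carbohydrate. Its values were 12.93, 11.90, 11.49, 12.61 and 12.75 in control replicates 1 to 5 and 13.52, 13.92, 14.01, 13.74 and 13.94 in the treated animals. All treated animals were above all controls, and controls 2 and 3 lay clearly below the other controls. The log2 fold change was 1.49 ± 0.23 (SE), or 2.81-fold (limma adjusted p = 0.00155). A second probe set of Thrsp gave 1.91 ± 0.25 when all probe sets were tested singly, and another, far dimmer at 6.49 in controls, gave 0.23 and was not called. The within-set value of 1.22 did not pass (adjusted p = 0.221).

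Mlxipl encodes ChREBP, the glucose-responsive activator of lipogenic genes. It read 12.30, 11.97, 11.82, 12.36 and 11.99 in controls and 12.51, 12.44, 12.55, 12.55 and 12.51 in treated animals. The groups did not overlap, and the treated animals differed among themselves by 0.04 (SD) against 0.23 in controls. The log2 fold change was 0.42 ± 0.10 (SE, limma adjusted p = 0.0105). Control replicate 4 was the highest control, and the within-set value was 0.15 (adjusted p = 0.694). Srebf1, which encodes SREBP1, read 11.75, 10.87, 11.20, 11.19 and 11.95 in controls and 11.21, 11.56, 11.58, 11.03 and 11.29 in treated animals, so the groups overlapped throughout. Its log2 fold change was -0.06, with a 95% confidence interval from -0.45 to 0.34.

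All 6 genes that supply acetyl-CoA and turn it into palmitate had a positive log2 fold change, and 4 were called higher. Fasn, fatty acid synthase, read 11.99, 11.50, 10.72, 11.77 and 12.15 in controls and 11.97, 13.01, 13.12, 12.49 and 12.46 in treated animals. Only phenobarbital replicate 1 lay within the control range. The log2 fold change was 0.98 ± 0.26 (SE, 1.98-fold, limma adjusted p = 0.0199). The call was lost without phenobarbital replicate 2 (0.88, adjusted p = 0.0517), and the within-set value was 0.84 (adjusted p = 0.472).

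Acacb, the acetyl-CoA carboxylase of the outer mitochondrial membrane whose malonyl-CoA restrains fatty acid oxidation, rose without overlap. It read 9.42, 9.13, 8.29, 9.14 and 8.83 in controls and 9.60, 10, 9.99, 9.95 and 9.57 in treated animals. Its log2 fold change was 0.86 ± 0.18 (SE, 1.82-fold, limma adjusted p = 0.00606), with a within-set value of 0.68 (adjusted p = 0.37). Its second probe set, at 5.22 in controls, gave 0.03 and was not called. Acaca, the cytosolic carboxylase that feeds fatty acid synthase, overlapped between groups (8.85 to 9.45 in controls, 9.16 to 9.89 treated) with a log2 fold change of 0.31 and an interval from 0.006 to 0.61, and it was not called (limma adjusted p = 0.136).

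Slc25a1, the mitochondrial citrate carrier, read 10.59, 10.39, 10.34, 10.94 and 10.47 in controls and 10.84, 11.06, 11.00, 11.05 and 10.92 in treated animals. It rose by 0.43 ± 0.10 (SE, limma adjusted p = 0.0133). Control replicate 4 alone of the controls lay among the treated animals, and the within-set value was 0.03 (adjusted p = 0.94). Acly, which splits citrate to acetyl-CoA in the cytosol, rose by 0.39 ± 0.11 (SE, limma adjusted p = 0.0305) from 12.63, 12.30, 12.16, 12.41 and 12.39 to 12.56, 12.79, 13.12, 12.83 and 12.54, with overlap. This call was fragile. It was lost without control replicate 2 (0.37) or 3 (0.34) and without phenobarbital replicate 2 (0.38), 3 (0.30) or 4 (0.37), at adjusted p between 0.0575 and 0.076, and the within-set value was 0.36 (adjusted p = 0.482). Of the 6 Acly probe sets tested singly, 4 were called higher, from 0.29 on the dimmest of the 6 to 1.01 ± 0.23 (SE) on one that read 10.08 in controls and 11.09 in treated animals. The dimmest averaged 2.85 in controls and 3.14 in treated animals, below the lower quartile of every array, where a change is weak support. Both it and the probe set that stands for Acly are of the _x_at type, which can match other transcripts. Acss2, which makes acetyl-CoA from acetate, had a log2 fold change of 0.05 with an interval from -0.22 to 0.32.

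Of the 5 elongases, Elovl6 and Elovl1 rose and the other 3 were not called. Elovl6, which lengthens palmitate to stearate, read 10.59, 10.26, 9.81, 10.21 and 10.66 in controls and 11.05, 11.31, 11.95, 11.07 and 11.21 in treated animals. Its log2 fold change was 1.01 ± 0.18 (SE, 2.02-fold, limma adjusted p = 0.0033), and no leave-out of an animal took it below 0.85. The within-set value was slightly larger at 1.11, with an unadjusted p of 0.00553 and an adjusted p of 0.167. Its other 2 probe sets gave 0.52 and 0.33 and were not called.

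Elovl1, which makes saturated and monounsaturated very-long-chain acids, rose on all 4 of its probe sets. Each was called higher and separated the groups, with log2 fold changes of 0.94, 0.67, 0.60 and 0.52. The brightest read 9.94, 9.73, 9.71, 10.21 and 10 in controls and 10.59, 10.51, 10.52, 10.41 and 10.55 in treated animals (limma adjusted p = 0.00145). Control replicate 4 was the highest control, and the within-set value was 0.31 (unadjusted p = 0.0316, adjusted p = 0.314). Of these 4 probe sets 3 are of the _x_at type, which can match other transcripts.

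The elongases of polyunsaturated acids, Elovl2 and Elovl5, and the elongase Elovl3 stood high in both groups. Their log2 fold changes were -0.13, -0.12 and 0.02, and their 95% confidence intervals lay between -0.31 and 0.21. None of the 3 desaturases was called by limma, and Fads1 had an unadjusted p under 0.05. Scd1, which makes oleate from stearate, read 14.56, 14.55, 14.37, 14.48 and 14.58 in controls and 14.47, 14.57, 14.59, 14.49 and 14.46 in treated animals. These values are close to the highest in the table (15.13), where an array can compress a difference. Its dimmer probe set averaged 11.40 in controls, with an SD of 0.33, and 11.57 in treated animals, with an SD of 0.28, and was not called. Fads1 and Fads2, the delta-5 and delta-6 desaturases, had log2 fold changes of 0.17 and 0.09 (limma adjusted p = 0.0889 and 0.436).

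None of the 7 triglyceride assembly genes was called by limma, and at an unadjusted p under 0.05 Dgat2 was higher and Lpin2 lower. Gpam, the mitochondrial acyltransferase of the first step, had a log2 fold change of 0.25 (interval -0.05 to 0.54), and Agpat2, of the next step, of -0.02 (-0.18 to 0.15). Dgat1 and Dgat2, which add the last acyl chain, had 0.08 and 0.20. Dgat2 read 11.98, 11.88, 11.93, 12.06 and 12.05 in controls, and 11.87, 12.35, 12.18, 12.25 and 12.23 in treated animals. Apart from phenobarbital replicate 1 the treated animals were above all controls, and without that animal the gene was called (0.27, adjusted p = 0.02). Its dimmer probe set was called higher when tested singly (0.52 ± 0.14 SE). Mogat1, a monoacylglycerol acyltransferase, was low in both groups (4.36 ± 0.20 and 4.17 ± 0.07, SD, n = 5).

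Lpin1 and Lpin2 encode lipins, phosphatidate phosphatases that also act with PPARalpha in the fasting response. Lpin1 read 9.73, 11.55, 9.85, 10.61 and 9.16 in controls and 9.69, 9.60, 10.16, 9.66 and 9.65 in treated animals. Controls spread far more than treated animals (SD 0.92 against 0.23), with control replicate 2 highest. The log2 fold change of -0.43 had an interval from -1.16 to 0.30 and was -0.09 without control replicate 2. Lpin2 was also highest in control replicate 2, at 11.46 against 10.27 to 10.85 in the other controls and 9.78 to 10.67 in treated animals. Its brightest probe set was not called (-0.49 ± 0.21 SE, limma adjusted p = 0.12), but 2 of the 4 were called lower when tested singly. One of these read 9.03, 9.95, 9.60, 8.65 and 9.05 in controls and 8.25, 8.01, 8.14, 8.01 and 8.03 in treated animals, with no overlap (-1.17 ± 0.19 SE, adjusted p = 0.00297). The mean of the 4 Lpin2 probe sets was called lower (-0.73, adjusted p = 0.0069), so the Lpin2 result depends on the probe set. Control replicate 2, the highest in both lipins, also had the highest mean of the 7 kidney markers. Of these markers only Kap, Umod and Slc12a1 were highest in that animal. Control replicate 2 also had the highest mean of the 29 fatty acid oxidation genes described below, at 11.35 against 10.63 to 11.10 in the other animals. The part of kidney RNA or of the fasting response in the lipin values was not tested.

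**Figure D3:**
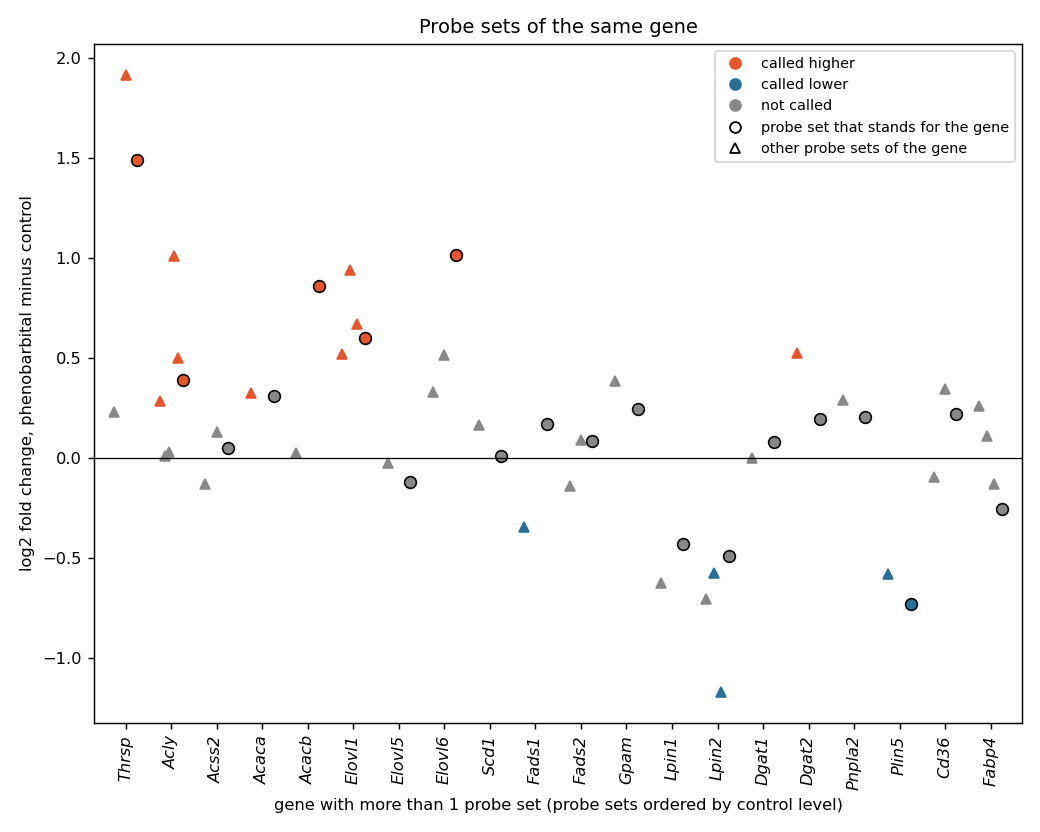
Log2 fold change of every single-symbol probe set of the 20 genes that have more than 1, coloured by call when all probe sets are tested singly (outlined circles, the probe set that stands for the gene; triangles, the others). All 4 Elovl1 probe sets and both Plin5 probe sets were called, while Lpin2, Dgat2, Acaca and Fads1 were called only on dimmer probe sets.

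Taken singly, 18 of the 70 probe sets (25.7%) were called higher and 5 (7.14%) lower, where 7.7% and 11% of all 45037 probe sets were. Probe sets of a gene read the same RNA and are not independent. Of the 20 genes with several single-symbol probe sets, 2 had every one called, 8 had some and 10 had none. In Fads1 a called probe set opposed the one that stands for the gene, with -0.34 on the dimmer and 0.17 on the brighter.

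The 2 patatin-like lipases differed in size of change, and only Pnpla3 was called. Pnpla3, a lipid droplet protein with lipase and acyltransferase activity that is induced by carbohydrate feeding, read 6.11, 6.04, 5.67, 6.20 and 6.69 in controls and 6.78, 8.40, 8.40, 6.98 and 7.45 in treated animals. All treated animals were above all controls, by a narrow margin for replicate 1. The log2 fold change was 1.46 ± 0.30 (SE, 2.75-fold, limma adjusted p = 0.00632). The within-set value was 1.40 (unadjusted p = 0.0247, adjusted p = 0.289). Pnpla2, which encodes the triglyceride lipase ATGL, had a log2 fold change of 0.21 (interval -0.01 to 0.42, limma adjusted p = 0.162), and its activator Abhd5 rose by 0.79 ± 0.15 (SE, adjusted p = 0.00405) without overlap, with a within-set value of 0.49.

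**Figure D4:**
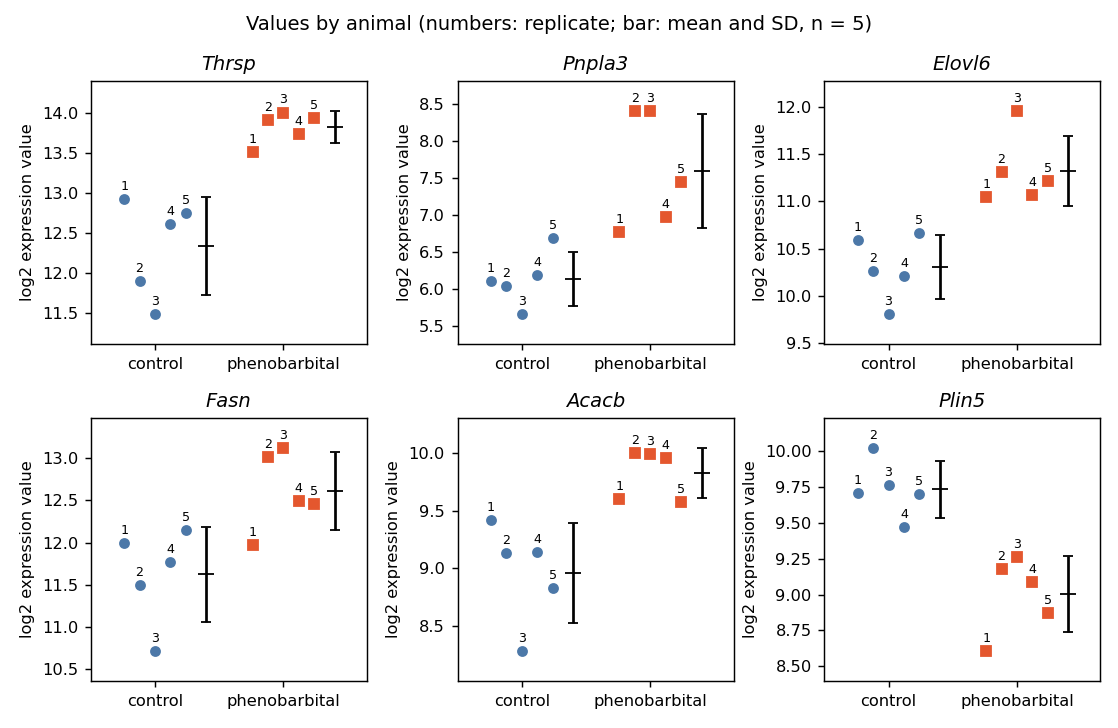
Log2 expression values of Thrsp, Pnpla3, Elovl6, Fasn, Acacb and Plin5 in each animal, numbered by replicate, with the mean and SD of each group of 5. Phenobarbital replicates 2 and 3 are the 2 highest treated animals for Pnpla3, Elovl6, Fasn and Acacb, and control replicate 3 is the lowest control in the first 5 genes.

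Plin5, a droplet coat protein that tethers droplets to mitochondria, was the single gene of the set called lower. It read 9.71, 10.02, 9.76, 9.47 and 9.70 in controls and 8.61, 9.18, 9.26, 9.09 and 8.87 in treated animals, with no overlap. The log2 fold change was -0.73 ± 0.13 (SE, limma adjusted p = 0.00261), and the second probe set gave -0.58. The within-set value was -0.47 (unadjusted p = 0.0419, adjusted p = 0.347). The other droplet genes were not called. Plin2, the main droplet coat protein of hepatocytes, read 12.59 to 12.88 in controls and 12.47 to 12.64 in treated animals (-0.19, limma adjusted p = 0.0826), and was called lower without control replicate 4 (-0.22, adjusted p = 0.0364). Cideb, which acts in lipoprotein lipidation, had a log2 fold change of 0.19 (limma adjusted p = 0.122) and was called higher without control replicate 4 (0.25, adjusted p = 0.032).

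Cidea and Cidec, droplet fusion proteins that accumulate in fatty liver, were low in both groups. Cidec lay below the lower quartile of every array, between 3.58 and 3.91 in all 10 animals. Cidea read 4.05, 4.15, 3.79, 4.23 and 4.19 in controls and 4.47, 4.28, 3.96, 4.22 and 4.41 in treated animals (0.19, limma adjusted p = 0.231). Plin4 read 5.15 to 5.59 and 5.27 to 5.43. The 95% confidence intervals of the log2 fold change were -0.15 to 0.18 for Cidec, -0.04 to 0.42 for Cidea and -0.21 to 0.13 for Plin4.

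Cd36, a fatty acid uptake receptor, read 7.91, 8.04, 7.59, 7.33 and 7.86 in controls and 7.52, 8.21, 8.33, 8.13 and 7.65 in treated animals. The groups overlapped (0.22, interval -0.14 to 0.59), and the within-set value of 0.64 rests on control replicate 4, the lowest of all 10 animals. Fabp4, the fatty acid binding protein of fat cells, endothelium and macrophages, had a log2 fold change of -0.25 (interval -0.50 to -0.009, limma adjusted p = 0.13) and a within-set value of -0.45. Control replicate 4 was the animal with the highest Adipoq (4.71 against 3.25 to 3.94 in the other 9) and the highest mean of 8 fat cell markers (5.49 against 5.05 to 5.29). None of these 8 markers was called by limma and none had an unadjusted p under 0.05, but with the spike-in set as a block Adipoq was called lower (-0.92, adjusted p = 0.0425). Among endothelial markers, 4 of 10 (40%) were called lower and 1 (10%) higher, where 11.3% and 9.02% of all genes were. The mean of these markers was 7.35 to 7.72 in controls and 7.27 to 7.58 in treated livers. Of 10 macrophage markers 2 (20%) were called lower, against the same 11.3%, with means of 7.96 to 8.36 and 7.88 to 8.21. The part of these cells in the Fabp4 value was not tested.

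The animals of a group differed in the same direction across many of these genes. Control replicate 3 was the lowest control in all 9 genes called higher and in 19 of all 34. Phenobarbital replicate 3 was the highest treated animal in 6 of the 9 and in 19 of 34, and phenobarbital replicate 1 was the lowest in 5 of the 9. Relative to the control mean, the median of the 9 genes in a treated animal lay between 0.63 and 1.03, and in controls between -0.47 and 0.25. The 9 were picked by their difference between these groups, so that separation follows from the choice. Over all 34 genes the median lay between -0.001 and 0.224 in treated animals and between -0.185 and 0.074 in controls, with overlap. Control replicate 4, the control on which the within-set values rest, was above the other 4 controls in 10 of 34 genes, among them Mlxipl, Slc25a1 and Elovl1 of the 9.

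Further genes of the same pathway, from lists outside the 34, moved in part. Among 18 other regulators 3 (16.7%) were called higher and none lower by limma, where 9.02% and 11.3% of all genes were. Of these regulators 2 had a negative change at an unadjusted p under 0.05. Mid1ip1, the paralog and partner of Thrsp, rose by 0.77 ± 0.17 (SE, limma adjusted p = 0.00794), from 9.55 to 10.48 in controls to 10.50 to 11.24 in treated animals, with a within-set value of 0.81. Mlx, the binding partner of ChREBP, and Insig2, which retains SREBP in the endoplasmic reticulum, rose by 0.34 and 0.28, with within-set values of -0.01 and 0.35. The SREBP pathway genes Insig1, Scap and Srebf2 and the liver X receptor Nr1h3 were not called (log2 fold changes of 0.08, -0.11, 0.25 and 0.098).

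Of 20 other enzymes of fatty acid synthesis, elongation and desaturation, 6 (30%) were called higher and 3 (15%) lower, where 9.02% and 11.3% of all genes were. Aacs, which makes acetoacetyl-CoA in the cytosol, rose by 1.00 ± 0.21 (SE, limma adjusted p = 0.00642), and Me1, malic enzyme, a source of NADPH for lipogenesis, by 0.54, with within-set values of 0.92 and 0.51. The elongation cycle moved both ways. Its last step, the reductase Tecr, rose by 0.38 (within-set value 0.03). Its middle steps, the ketoreductase Hsd17b12 and the dehydratase Hacd3, were called lower at -0.16 and -0.17 (within-set values -0.18 and -0.20). The mitochondrial synthase Oxsm was called lower at -0.36 (within-set value -0.09). Scd3, a desaturase, rose by 0.35 from 5.47 in controls, with a within-set value of 0.37. The others called higher were Cyb5r3 and Cyb5a, at 0.31 and 0.17 (within-set values 0.24 and 0.17).

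Downstream of the fatty acids, genes were called in both directions, in shares to be read against the same 9.02% higher and 11.3% lower of all genes. Of 9 acyl-CoA synthetases none was called higher by limma, none had an unadjusted p under 0.05 with a positive change, and 2 (22.2%) were called lower (Acsl3 at -0.58, Slc27a2 at -0.38). Of 14 other glycerolipid enzymes 1 (7.14%) was called higher (Lpgat1, 0.37) and 2 (14.3%) lower (Gpat2 at -0.62, Gpat3 at -0.46). Of 21 other droplet and lipolysis genes 2 (9.52%) were called higher (Abhd5, and Ces1d at 0.39) and 3 (14.3%) lower (Fabp2 at -0.36, Hsd17b13 at -0.23, Ces1f at -0.18). Within-set values were -0.20 for Acsl3, -0.16 for Slc27a2, 0.29 for Lpgat1, -0.56 for Gpat2 and -0.03 for Gpat3. They were 0.49 for Abhd5, 0.38 for Ces1d, -0.02 for Fabp2, -0.14 for Hsd17b13 and -0.15 for Ces1f. Of 10 triglyceride secretion genes, which include Cideb, 3 (30%) were called higher and 2 (20%) lower. Sar1b, a GTPase of chylomicron and lipoprotein export, rose by 0.34 ± 0.06 (SE, limma adjusted p = 0.00217, within-set value 0.40). Tm6sf2 rose by 0.47 and P4hb by 0.21, with within-set values of 0.12 and 0.09. Apob and Apoa5 were called lower at -0.20 and -0.24, with within-set values of -0.16 and -0.08.

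The opposite pathway, fatty acid oxidation, had 14 of 29 genes called lower, or 48.3% against 11.3% of all genes, and none higher by limma (0 at an unadjusted p under 0.05), with a median log2 fold change of -0.20. The largest of these changes was in the fatty acid hydroxylase Cyp4a14 (-1.77). It read 7.56, 9.83, 7.81, 6.01 and 7.03 in controls and 5.77 to 6.01 in treated animals, so control replicate 4 was level with the treated animals and the within-set value was -0.13. Next came the thioesterase Acot1 (-1.35, within-set -0.83), the nuclear receptor Ppara that drives many oxidation genes (-0.87, within-set -0.52) and the thiolase Acaa1a (-0.55, within-set -0.17). Cholesterol synthesis, driven by the sister factor SREBP2, had 4 of 18 (22.2%) called higher and none lower by limma (0 at an unadjusted p under 0.05), with a median of 0.05. Those 4 were Sqle (0.64), Mvd (0.63), Fdps (0.47) and Lss (0.44). Their within-set values were 0.29, -0.03, -0.10 and 0.06, so Mvd and Fdps turned sign. With the spike-in set as a block no gene of these lists was called, and the median was -0.17 for oxidation and turned to -0.14 for cholesterol synthesis. The difference between the lists was not tested, since the lists were chosen with results of these data known.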

How the data were processed

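Whole liver RNA from 10 mice, 5 per group, was amplified with a T7-oligo(dT) primer and hybridised to Affymetrix arrays, per the labels' protocols. GCOS, the array software, is named in the submitters' processing notes. The authors deposited log2 values per probe set, and how these were summarised and normalised is not stated in the labels or the table. The log2 scale was inferred from the values, which run from 2.34 to 15.13. Array quartiles differed by at most 0.16, so no further normalization was applied, and no arrays were identical.

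Of 45101 probe sets, 64 were controls. The annotation gave 34945 probe sets a single symbol, 932 several symbols and 9160 no entry, and the last are unnamed here. For each of 18193 genes the brightest single-symbol probe set (by its mean) was used, and no filter on low values was applied. Groups were compared with limma (version 3.58.1, R 4.3.3) through lmFit and eBayes. Tests were two-sided, with Benjamini-Hochberg adjustment over all genes, or over all 45037 probe sets where these were tested singly. The fit was tested on simulated data. Each array is 1 animal.

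The members and lists were chosen with earlier results of these data known. By rule the text names every member and, of each further pathway list, up to 4 called genes with the largest change. Insig1, Scap, Srebf2, Nr1h3, Scd3, Cyb5r3, Cyb5a, Hsd17b12, Hacd3, Ces1f, the fifth gene of the secretion list, Umod, Slc12a1, Kap, Ucp1 and Adipoq were named after their values were seen. Alternatives covered normalization, probe set choice, variance, array weights, the spike-in set, the replicate number and each animal left out.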

Additional observations from a re-analysis of the deposited data

Results flagged for a closer look

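In 2 of 68 groups (34 genes, each in control and treated animals) 1 animal stood further from the rest than a test for a single outlying value allows, and chance alone marks about 1 group in 20. Both were phenobarbital replicate 3. Elovl6 read 11.95 there against 11.05 to 11.31 in the other treated animals, and without that animal its log2 fold change was 0.85 and still called. Lpin1 read 10.16 there against 9.60 to 9.69, and it was not called with or without it.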

How the results depend on the processing

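All 10 called genes were called, in the same direction, under quantile normalization, median centring, brighter genes alone, the mean of probe sets, single-transcript probe sets (33 of 34 genes measured) and array weights. The mean of probe sets added Lpin2, Dgat2 and Pnpla2, and array weights added Dgat2 and Cideb. Trend and robust variance lost Fasn and added Fads1 and Plin2. The replicate number as a block (replicate block) gave 8 higher and 2 lower, losing Acly and adding Lpin2, with 3664 genes called in all. Same-numbered animals deviated together with correlations between -0.02 and 0.12 and not every animal matched its own number best, so the numbers are not taken as pairs. Members called lower numbered 2 under trend and robust variance, and also 2 when probe sets were averaged.

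The spike-in set as a block left 0 members called in either direction, 0 of 70 probe sets (12 higher and 3 lower at an unadjusted p under 0.05), 143 genes in all and a member median of 0.031. These rest on 1 control, and the cause was not tested. Leaving out 1 animal gave 7 to 10 members higher, 1 to 2 lower, medians of 0.10 to 0.15, 16 to 26 probe sets and 2431 (without phenobarbital replicate 2) to 4610 genes called. Without control replicate 2 the total was 2460.

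Among the 34 genes, signs turned only in genes not called. (Of called genes in the further pathway and marker lists, Mlx, Mvd, Fdps, Decr2 and Ass1 turned sign with the spike-in set as a block.) With that block the members that turned were Srebf1 (0.14), Acss2 (-0.016), Elovl3 (-0.16), Fads2 (-0.024), Mogat1 (0.028), Dgat1 (-0.09), Pnpla2 (-0.016), Cideb (-0.038) and Cidec (-0.08). Others were Fads1 with the mean of probe sets (-0.088), Agpat2 with median centring (0.016) and array weights (0.0166), Dgat1 on its single-transcript probe set (-0.002) and Cidec after quantile normalization (-0.0124). Over omissions of 1 animal the ranges that crossed 0 were Srebf1 (-0.1885 to 0.0815), Acss2 (-0.026 to 0.158), Elovl3 (-0.017 to 0.0905), Scd1 (-0.0265 to 0.026), Agpat2 (-0.058 to 0.015), Cidec (-0.045 to 0.0375) and Plin4 (-0.1015 to 0.0085).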
